A study of Mus musculus with 6 samples.

Results

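The laminins, integrins and basement membrane linkers of mouse muscle were examined in FLExDUX4 mice and their wild-type littermates. The members were the genes of the deposited table named as laminin α, β or γ chains (Lama, Lamb and Lamc), as integrins (symbols that start with Itga or Itgb), as nidogens (Nid1 and Nid2), as perlecan (Hspg2) or as agrin (Agrn). The rule found 46 genes of 52550 in the table. They were 11 laminin chains, 4 linkers, 18 integrin α chains, 9 integrin β chains and 4 genes that carry an integrin's name without being a chain. Those 4 are Itgb1bp1 and Itgb1bp2, which bind the tail of the β chain encoded by Itgb1, Itgb3bp, a centromere protein, and Itgbl1, a secreted protein that resembles part of a β chain.

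The samples were quadriceps muscle from 3 FLExDUX4 and 3 wild-type (WT) male littermates, labelled as 13 weeks old. The methods of the study describe triceps from younger males, so the muscle and the age differ between these sources. FLExDUX4 mice are hemizygous for an inverted human DUX4 transgene between lox sites in the Rosa26 locus, which leaks transcript at a low level. The methods name no Cre for these mice, and WT littermates lack the transgene. RNA was read from the 3′ end of transcripts (QuantSeq), so a count does not grow with transcript length, and levels of different genes are set side by side here without a length correction. The table sums the reads of each genotype, and the numbered columns for single mice were set aside, because no label ties them to a genotype. Columns were assigned by label only, and matching the numbered ones to the totals by their values was not tried. Each gene therefore has 1 group total per genotype, no replicate error is given, no test between genotypes was made, and 1 mouse may decide a ratio.

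Depth was 13110125 counts on genes in the FLExDUX4 total and 18367364 in the WT total. Totals were scaled by TMM (trimmed mean of M-values), which gives CPM (counts per 1000000 counts), and the log2 ratio between totals, FLExDUX4 over WT, was given a 95% Clopper-Pearson interval that covers counting error only. Ratios of at least 0.5 in size (1.41-fold) are called past the fold. The added spike-in RNAs give another scaling, which moved the median of all genes by -0.28 and the members by the same amount. The label of muscle was checked on 10 fiber markers, among them Acta1, Ckm and Myh4, which summed to 133739 CPM in the FLExDUX4 total and 135452 CPM in the WT total.

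Every muscle fiber is wrapped in a basement membrane, a sheet built from laminin and collagen IV networks. A laminin is a trimer of 1 α, 1 β and 1 γ chain. Nidogens and perlecan tie laminin to collagen IV, and agrin, a heparan sulfate proteoglycan, organizes the neuromuscular junction. Laminin is held to the fiber by dystroglycan and by integrins, receptors made of 1 α and 1 β chain. In muscle fibers the main laminin α chain is encoded by Lama2, whose loss causes a congenital muscular dystrophy, and the main laminin-binding integrin pairs the products of Itga7 and Itgb1.

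RefSeq promoter sequence (GRCm38.p6) was matched by symbol for 30 of the 46 members. The 250 bases before the RefSeq start are shown for Lama2, the laminin α gene past the fold, for Lama5, an α gene that was not, and for Itgb1, the member with the most counts. They lie at chr10:27616943-27617192 (minus strand), chr2:180225860-180226109 (minus strand) and chr8:128685404-128685653 (plus strand), written 5′ to 3′, and capitals mark the GC box GGGCGG on either strand. The Lama5 and Itgb1 windows adjoin the GENCODE start of the gene, while the Lama2 window lies inside the GENCODE gene, which starts further upstream.
Lama2: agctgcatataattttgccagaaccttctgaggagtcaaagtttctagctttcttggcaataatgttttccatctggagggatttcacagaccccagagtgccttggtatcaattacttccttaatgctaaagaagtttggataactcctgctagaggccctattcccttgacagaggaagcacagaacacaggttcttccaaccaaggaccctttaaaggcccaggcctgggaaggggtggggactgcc
Lama5: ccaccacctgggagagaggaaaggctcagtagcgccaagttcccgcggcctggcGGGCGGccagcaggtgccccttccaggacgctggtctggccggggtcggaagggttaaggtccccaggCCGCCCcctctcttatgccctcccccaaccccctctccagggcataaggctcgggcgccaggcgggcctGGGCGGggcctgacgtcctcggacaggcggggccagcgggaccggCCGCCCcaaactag
Itgb1: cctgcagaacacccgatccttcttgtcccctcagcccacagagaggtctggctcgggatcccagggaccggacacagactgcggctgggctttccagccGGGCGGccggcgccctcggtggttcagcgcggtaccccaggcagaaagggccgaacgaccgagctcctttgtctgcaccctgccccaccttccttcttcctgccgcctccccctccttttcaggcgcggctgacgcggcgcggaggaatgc
The Lama2 window held no GC box and 47.2% G and C, the Lama5 window held 4 GC boxes and 72.4%, and the Itgb1 window held 1 GC box and 68% G and C. Over the 34 promoters listed for members, 41.2% held GGGCGG, beside 32.7% of the 32851 promoters in the RefSeq table. None of the 34 held the E-box CACGTG (6.02% of all promoters) or TATAAA (12.4%), each searched on both strands. These are matches of letters in a window of this length and nothing is drawn from them about binding.

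The members together took 9933 counts of the FLExDUX4 total and 13945 of the WT total, or 0.0758% and 0.0759%. Their summed log2 ratio was 0.03 (interval -0.01 to 0.06), and -0.25 was the median over the members with spike-in scaling against 0.03 with TMM. The filter on low counts kept 36 members and left out 10. The direction was even, with 18 ratios above 0 and 18 below. Of the 36, 7 were past the fold and higher in FLExDUX4 (19.4%), beside 15.7% of the 13396 genes kept, and 3 were lower (8.33%), beside 15.7% of genes. With spike-in scaling 4 were higher and 9 lower, beside 9.11% and 28.5% of genes. In the 24 members with at least 100 counts over both totals, 5 were past the fold in either direction (20.8%), beside 16.2% of the 9300 genes with that depth. Of these 24, 4 were higher (16.7%) and 1 lower (4.17%), beside 8.54% and 7.67% of the 9300 genes, or 794 and 713 genes. The counting interval lay above 0 for 6 of the 24 and below 0 for 4, beside 21.5% and 20.9% of the 9300 genes, and it left out 0 for 10 in all (41.7%), beside 42.4%. Over the 36 members it lay above 0 for 8 and below 0 for 4 (33.3% in all), beside 20.5%, 20.6% and 41.1% of the 13396 genes. Past the fold in either direction were 10 of the 36, beside 31.4% of genes. The 4 higher ones were Nid2, Lama2, Itgbl1 and Itga9, and the lower one was Itgb4.

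**Figure D1:**
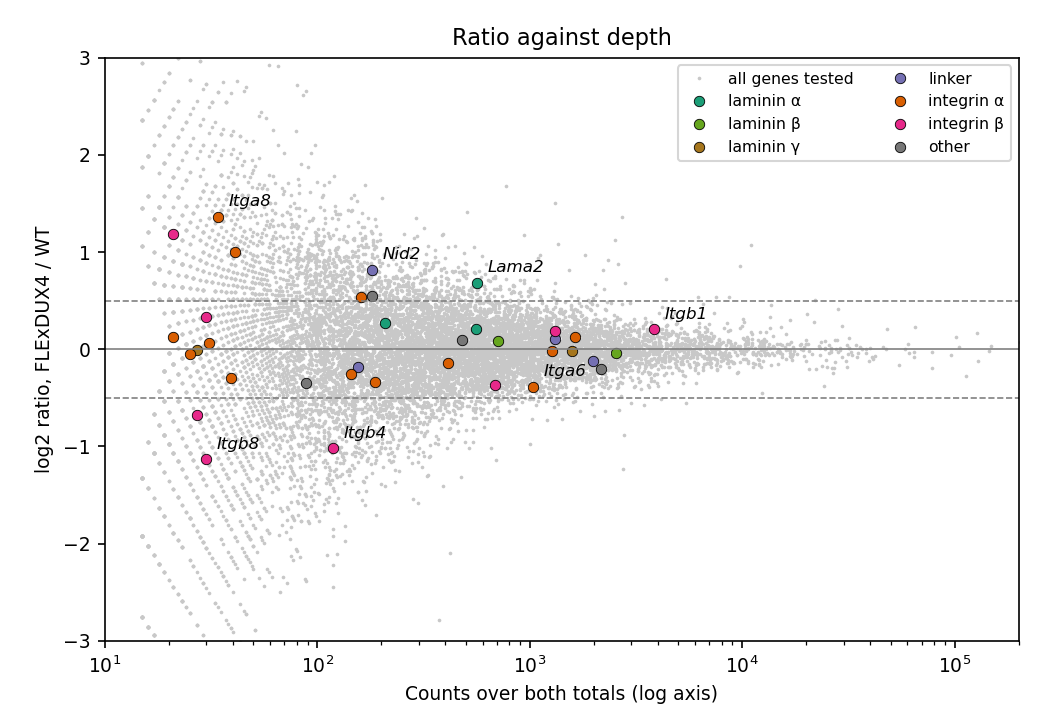
Log2 ratio of the group totals (FLExDUX4 over WT, TMM-scaled) against the counts over both totals (log axis), with the 36 members kept in color by class and all 13396 genes in gray. Dashed lines mark 0.5 in each direction, 215 genes lie outside the axes, and the spread of gray points widens toward low counts, where Itga8 and Itgb8 lie.

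Among the laminin α chains with at least 50 counts, Lama2 differed most between the totals. It had 298 counts in FLExDUX4 and 265 in WT, or 23.0 CPM against 14.3 CPM, although the FLExDUX4 total was the shallower. The log2 ratio was 0.69 (interval 0.44 to 0.93), and 0.41 with spike-in scaling, under the fold. Lama2 lies on chromosome 10 (26980036 to 27619758, minus strand, GRCm38). Lama4, the α chain of vessel and nerve basement membranes, had 249 and 309 counts, and its ratio of 0.21 (interval -0.04 to 0.45) turned to -0.07 with spike-in scaling. Lama5, an α chain of vessels and of many epithelia, had 95 and 113 counts, and its ratio of 0.27 (interval -0.14 to 0.67) became -0.01 with spike-in scaling. Both intervals hold 0, so a difference in these chains was not detectable at this depth. Lama3, the α chain of skin laminin, was at 0 and 6 counts, and Lama1, an embryonic chain, was at 0 in both totals.

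A share within a total does not depend on the scaling between totals. Lama2 gave 46.4% of the 642 laminin α counts in FLExDUX4 (interval 42.5 to 50.4) and 38.2% of the 693 in WT (interval 34.6 to 42.0). Lama4 gave 38.8% (interval 35.0 to 42.7) and 44.6% (interval 40.8 to 48.4), and Lama5 gave 14.8% and 16.3%. With Lama2 left out of the class, the Lama4 share differed by 0.188 percentage points in place of -5.80. The chain with the most α counts was Lama2 in the FLExDUX4 total and Lama4 in the WT total, though within each total their intervals overlapped. All pairs of genes given here and below were chosen after their values were seen, so their intervals describe the pair and test nothing. Lama2 per Lama4 count was 1.197 in FLExDUX4 and 0.858 in WT, a log2 difference of 0.48 (interval 0.13 to 0.83). Lama2 per Lamc1 count was 0.463 and 0.285, a log2 difference of 0.70 (interval 0.41 to 0.99). Lama2 per Itga7 count was 0.571 and 0.350, a log2 difference of 0.71 (interval 0.410 to 1.001).

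The main laminin β and γ chains were close between the genotypes with TMM scaling, while spike-in totals put Lamb2 at -0.31 and Lamc1 at -0.29. Lamb2, the β chain enriched at the neuromuscular junction, had 1032 and 1512 counts, or 79.5 CPM and 81.5 CPM, a log2 ratio of -0.03 (interval -0.15 to 0.08). Lamb1, the widespread β chain, had 300 and 406 counts, and its ratio of 0.08 (interval -0.14 to 0.30) became -0.20 with spike-in scaling. Lamc1, the γ chain shared by most laminins, had 644 and 931 counts and a ratio of -0.015 (interval -0.16 to 0.13). Within the β class, Lamb2 gave 77.4% of counts in FLExDUX4 (interval 75.1 to 79.6) and 78.3% in WT (interval 76.4 to 80.1). Within the γ class, Lamc1 gave 98.3% and 98% of counts. Lamb3, a β chain of skin laminin, had 1 and 13 counts, near the limit of detection, and Lamc3 had 0 and 3 counts.

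Of the 4 linkers, Nid2 was past the fold and the others were not. Nid2, the less abundant of the nidogens, had 100 counts in FLExDUX4 and 81 in WT, or 7.71 CPM and 4.36 CPM. Its log2 ratio of 0.82 (interval 0.38 to 1.26) was the highest of the 25 members with at least 50 counts, and was 0.54 with spike-in scaling. Nid2 lies on chromosome 14 (19751265 to 19811787, plus strand), and its exons overlap those of Rtraf on the opposite strand, a gene with 1199 and 1669 counts. The sources used here do not say whether counting used strand, so a part of the Nid2 counts from Rtraf cannot be told apart. Nid1 had 564 and 749 counts, and its ratio of 0.11 (interval -0.05 to 0.27) became -0.17 with spike-in scaling. Nid2 per Nid1 count was 0.177 and 0.108, a log2 difference of 0.71 (interval 0.245 to 1.184). Hspg2, which encodes perlecan, had 772 and 1202 counts and a ratio of -0.12 (interval -0.25 to 0.01), brought to -0.40 by spike-in totals. Agrn had 59 and 96 counts and a ratio of -0.18 (interval -0.68 to 0.30), brought to -0.46 by spike-in totals.

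**Figure D2:**
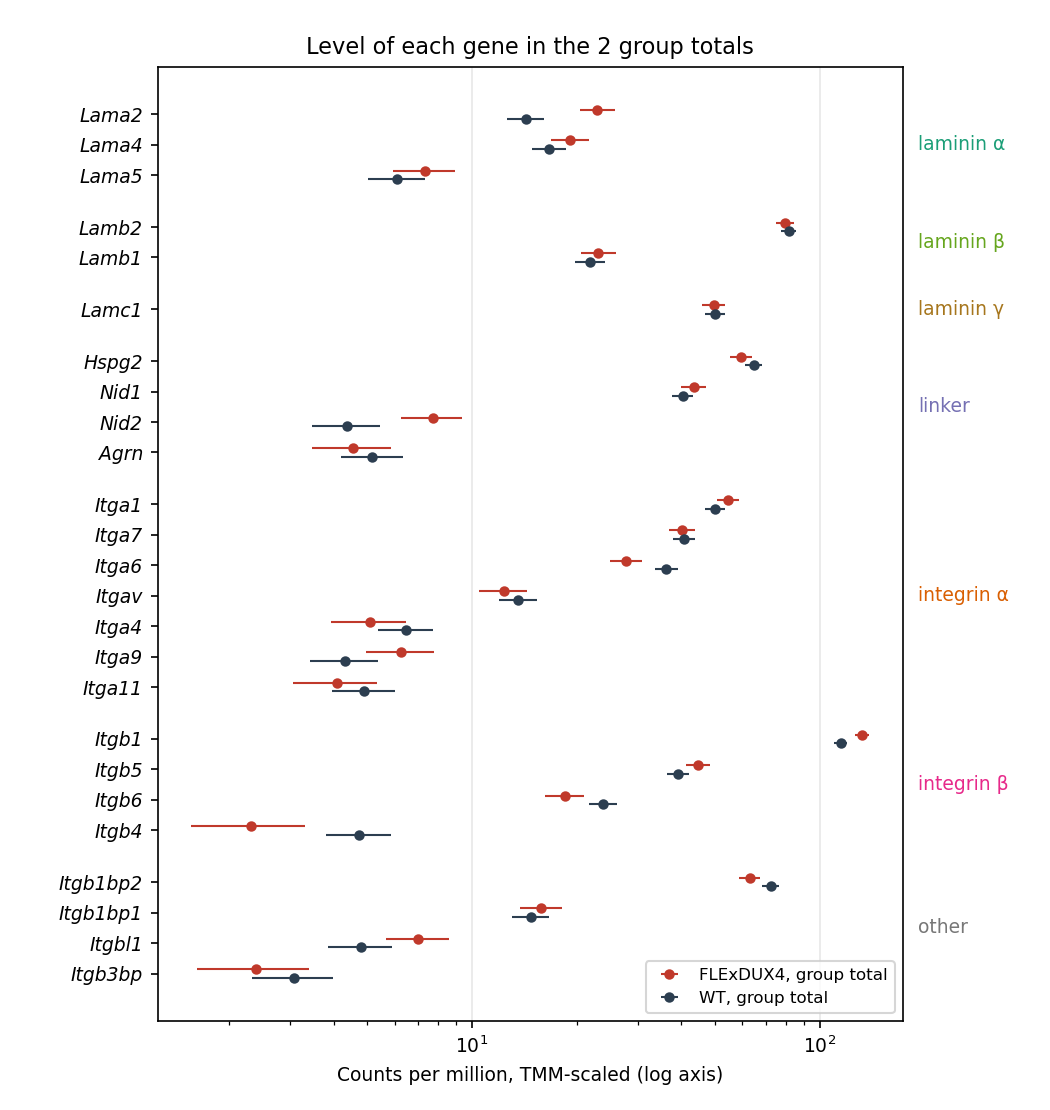
TMM-scaled CPM (log axis) of the 25 members with at least 50 counts, in the FLExDUX4 total (red) and the WT total (dark blue), with 95% Poisson intervals for counting error. Itgb1 was highest, at 132 CPM and 115 CPM, and the intervals of the 2 totals lay apart for Lama2, Nid2, Itga6, Itgb1, Itgb6, Itgb4 and Itgb1bp2.

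Among the integrin α chains, Itga6 was lower in the FLExDUX4 total and Itga7 was close in both with TMM scaling. Itga6, whose product binds laminin with either the Itgb1 or the Itgb4 chain, had 360 and 673 counts, or 27.7 CPM and 36.3 CPM. Its log2 ratio was -0.39 (interval -0.57 to -0.20), under the fold, and -0.66 with spike-in scaling, past it. It lies on chromosome 2 (71745616 to 71858416, plus strand). Itga7, the main laminin-binding α chain of the muscle fiber, had 522 and 757 counts, 40.2 CPM and 40.8 CPM, and a ratio of -0.02 (interval -0.18 to 0.14), which spike-in totals brought to -0.30. Itga6 per Itga7 count was 0.690 in FLExDUX4 and 0.889 in WT, a log2 difference of -0.37 (interval -0.62 to -0.12). Itga1, a collagen-binding chain, led the class with 709 and 929 counts, and its ratio of 0.13 (interval -0.02 to 0.27) became -0.15 with spike-in scaling.

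The integrin α chains with fewer counts went in both directions. Itga9, which binds tenascin C among other ligands, had 81 and 80 counts and a ratio of 0.53 (interval 0.07 to 0.998), and spike-in scaling brought it to 0.26, under the fold. Itgav, the chain shared by the receptors for vitronectin, had 160 and 252 counts and a ratio of -0.14 (interval -0.43 to 0.15). Itga4, a chain of leukocyte receptors for Vcam1, had 66 and 120 counts and a ratio of -0.34 (interval -0.80 to 0.10). Itga11, a collagen receptor of fibroblasts, had 53 and 91 counts and a ratio of -0.26 (interval -0.78 to 0.24). With spike-in scaling Itga4 (-0.62) and Itga11 (-0.53) were past the fold. As shares of the α class, Itga1 gave 34.6% of 2052 counts in FLExDUX4 (interval 32.5 to 36.7) and 30.8% of 3020 in WT (interval 29.1 to 32.4), and Itga6 gave 17.5% (interval 15.9 to 19.3) and 22.3% (interval 20.8 to 23.8).

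All 4 integrin β chains with at least 50 counts had an interval that left out 0, a pair in each direction, beside 42.4% of genes with at least 100 counts. With spike-in totals the upper pair, Itgb1 and Itgb5, moved to just below 0. Itgb1, the partner of most α chains, had 1719 counts in FLExDUX4 and 2135 in WT, or 132 CPM and 115 CPM. Its log2 ratio of 0.20 (interval 0.11 to 0.30) turned to -0.07 with spike-in scaling. Itgb5, a partner of the αv chain, had 581 and 728 counts, and its ratio of 0.19 (interval 0.03 to 0.35) turned to -0.08 with spike-in scaling. On the lower side, Itgb6, an αv partner best known from epithelia, had 240 and 443 counts and a ratio of -0.37 (interval -0.60 to -0.14), and spike-in scaling brought it to -0.64. Itgb4, the partner of the α6 chain in hemidesmosomes and a chain of Schwann cells, had 30 and 88 counts, or 2.31 CPM and 4.74 CPM. Its ratio of -1.02 (interval -1.69 to -0.42) was the lowest of the 25 members with at least 50 counts. Itgb4 lies on chromosome 11 (115974709 to 116008412, plus strand).

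Within the β class, Itgb1 gave 65.8% of 2612 counts in FLExDUX4 (interval 64.0 to 67.6) and 61.7% of 3460 in WT (interval 60.1 to 63.3). Itgb6 gave 9.19% (interval 8.11 to 10.4) and 12.8% (interval 11.7 to 13.96), and Itgb4 gave 1.15% (interval 0.776 to 1.64) and 2.54% (interval 2.05 to 3.12). Set against Itgb1, which was chosen with its own higher ratio in view, the log2 difference between genotypes was -0.59 for Itga6 (interval -0.80 to -0.38), -0.57 for Itgb6 (interval -0.82 to -0.32) and -1.24 for Itgb4 (interval -1.90 to -0.62). The partners Itga6 and Itgb4 were both lower in FLExDUX4 under every scaling tried, but by unequal amounts: Itga6 per Itgb4 count was 12 and 7.65, a log2 difference of 0.65 (interval 0.005 to 1.33).

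**Figure D3:**
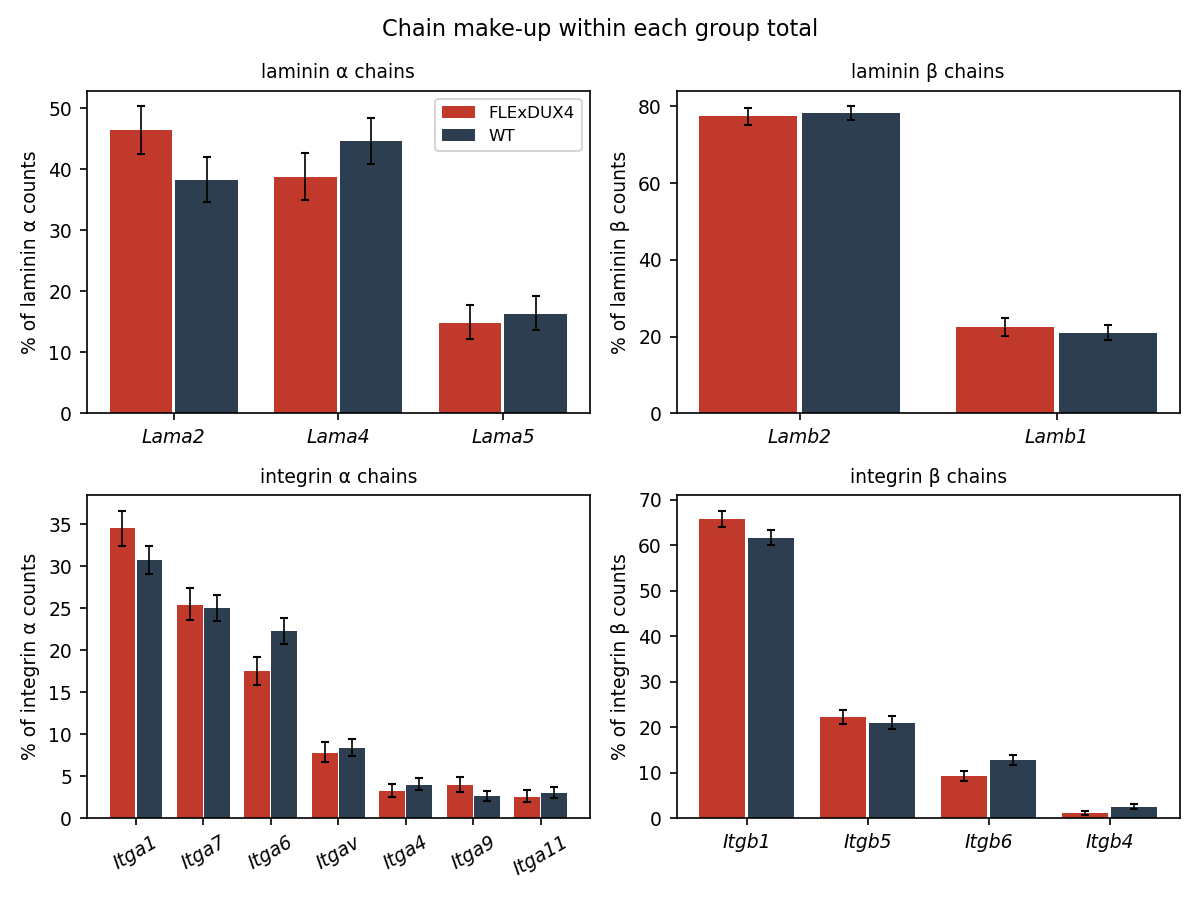
Share of each chain in the counts of its class (percent, bars from 0), for chains with at least 50 counts, in the FLExDUX4 total (red) and the WT total (dark blue), with 95% Clopper-Pearson intervals. Lama2 was 46.4% against 38.2% of laminin α counts and Itga6 was 17.5% against 22.3% of integrin α counts, while the Lamb2 bars differed by less than their intervals.

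The 4 genes named for an integrin without being a chain were mixed. Itgb1bp2 encodes melusin, a chaperone-like protein of striated muscle that binds the Itgb1 tail, and lies on chromosome X (101449088 to 101453541, plus strand). It had 817 and 1343 counts, or 63.0 CPM and 72.4 CPM, and a log2 ratio of -0.20 (interval -0.33 to -0.07), which spike-in totals brought to -0.48. Itgb1bp1, an inhibitor of integrin activation, had 205 and 274 counts, and its ratio of 0.10 (interval -0.17 to 0.36) became -0.18 with spike-in scaling. Its exons overlap Cpsf3 and Asap2 on the opposite strand. Itgbl1 had 91 and 89 counts and a ratio of 0.55 (interval 0.11 to 0.99), which spike-in scaling brought to 0.27, under the fold. Itgb3bp had 31 and 57 counts and a ratio of -0.35 (interval -1.04 to 0.29), which spike-in totals brought to -0.63, past the fold, with exons that overlap Pgm1 on the opposite strand.

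**Figure D4:**
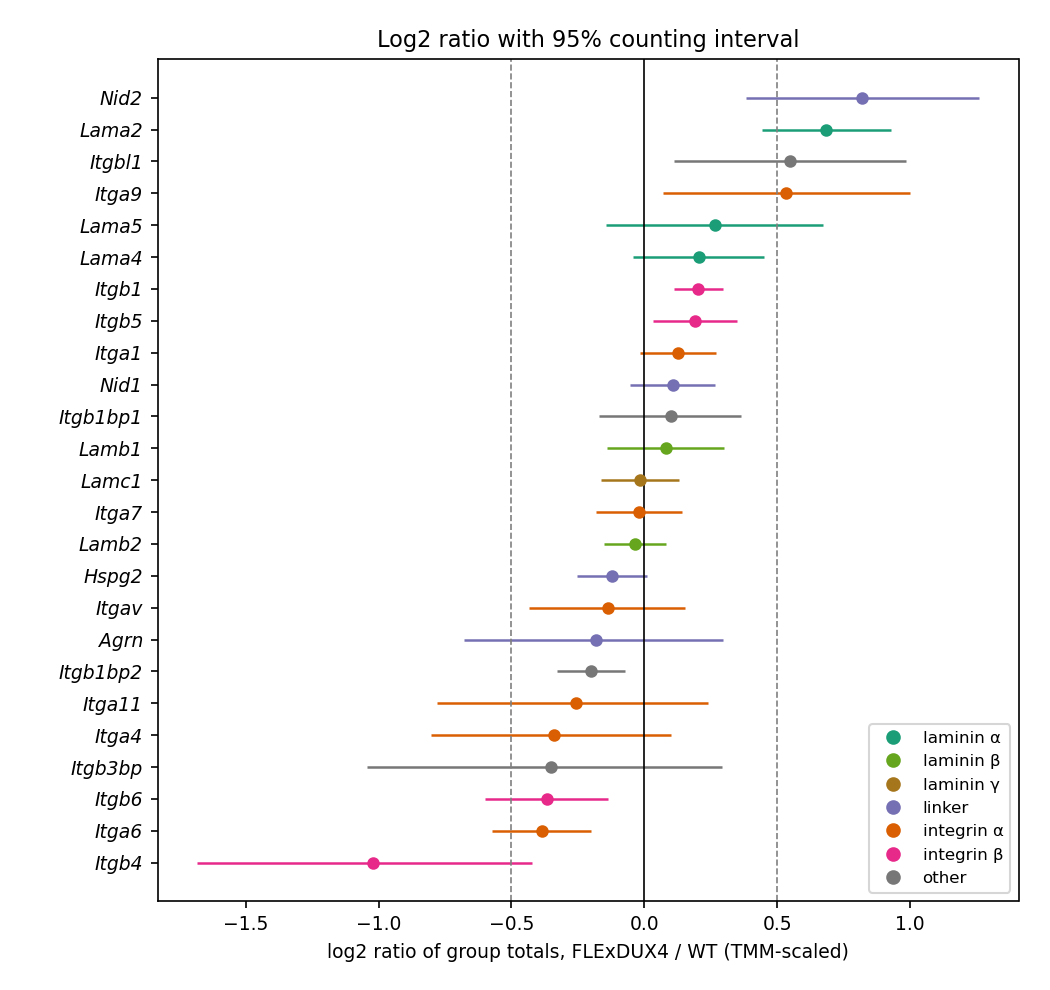
Log2 ratio of the group totals (FLExDUX4 over WT, TMM-scaled) for the 25 members with at least 50 counts, with 95% counting intervals, colored by class. Dashed lines mark 0.5 in each direction. Nid2, Lama2, Itgbl1 and Itga9 lie past the upper line and Itgb4 past the lower one, and with spike-in totals every point moves by -0.28, which takes Lama2, Itgbl1 and Itga9 back under the line and Itga6, Itgb6, Itgb3bp, Itga4 and Itga11 past the lower one.

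The remaining members had few counts. With 10 to 49 counts over both totals there were 14, and their single ratios are not given. Of these, 11 were kept and entered the counts above, with 3 of the 7 higher and 2 of the 3 lower members. Apart from Itga4 (66 and 120 counts), integrin chains of leukocytes were scarce, with 24 and 17 counts for Itgam, 8 and 19 for Itgb2, 14 and 16 for Itgb7 and 4 and 6 for Itgae. The platelet chains Itga2b (14 and 25) and Itgb3 (13 and 8) were at a like level. Itga8, a nephronectin receptor, had 22 and 12 counts, and Itgb8, an αv partner, had 7 and 23. Itga3 had 13 and 18, Itga10 had 10 and 15, Itga5 had 9 and 12, and Itga2 had 5 and 6. Itgal had 0 and 7 counts, and Itgax, Itgad and Itgb2l were at 0 in both totals. A count of 0 in a total allows up to 3 counts (a one-sided 95% limit).

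Whole muscle holds many cell types, and fewer cells of a type cannot be told apart from less RNA per cell. Marker intervals above or below 0 stand beside 20.5% and 20.6% of all genes. Fibroblast markers summed to 1319 CPM in FLExDUX4 and 1183 CPM in WT, with all 7 above 0 in log2 ratio and 3 of 7 intervals above 0 (Col1a1, Lum and Ly6a), and fibroblasts are known to express Lama2. The spike-in shift of -0.28 takes the fibroblast markers Pdgfra (0.05), Dcn (0.04) and Col3a1 (0.0056) below 0. The same shift puts the fibroblast sum lower in FLExDUX4 than in WT. With TMM scaling, Col1a1 gave 293 CPM of that sum in FLExDUX4 and 202 CPM in WT. Endothelial markers summed to 205.9 CPM and 229 CPM, with 4 of 8 intervals below 0 (Kdr, Tek, Emcn and Cldn5) and 1 above (Vwf). Endothelium is known to express Itga6 and Lama4, whose log2 ratios went opposite ways (-0.39 and 0.21). Schwann cell markers summed to 153 CPM and 145 CPM, with 2 of 7 intervals above 0 and 1 below, near the shares of all genes. Itgb4, named above as a chain of Schwann cells, had a log2 ratio of -1.02. Of the 5 epithelial markers, Epcam, Krt5, Krt14 and Krt8 were at 0 in both totals and Cdh1 had 5 and 14 counts, in the same totals where Itgb6 had 240 and 443. Leukocyte markers summed to 76.1 CPM and 77.7 CPM, with 1 of the 7 intervals of kept genes below 0 (S100a8). Cd68 (-0.64) and Adgre1 (-0.66) were past the fold with intervals that hold 0. Of the 7 ratios, 3 were above 0, among them Ptprc (0.43, interval -0.08 to 0.94), and the median was -0.02. Platelet markers summed to 16.2 CPM and 20.6 CPM, nearly all Pf4, with Gp1ba and Gp1bb at 0. Satellite cell markers summed to 30.1 CPM and 30.4 CPM, with Pax7 lower (log2 ratio -0.82, interval -1.44 to -0.25). Myf5 (0.34, from 23 and 26 counts), Chrdl2 (0.56) and Sdc4 (0.01) were above 0 with intervals that hold 0. Mural cell markers summed to 363 CPM and 336 CPM, with 2 of 6 intervals above 0 (Acta2 and Tagln). Tenocyte markers summed to 158 CPM and 150.1 CPM and went both ways, with Tnmd (0.37) and Mkx (1.21, from 23 and 14 counts) above 0 and Scx (-1.01) below. The part of these cells in the members' ratios was not tested.

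Other genes of the basement membrane and of integrin adhesion were taken from lists, whose counts past the fold stand beside 15.7% of all genes in each direction. Of 7 basement membrane collagens kept, 2 were past the fold and higher and 1 lower, with a median log2 ratio of -0.08. The higher ones had few counts, 26 and 20 for Col4a3 and 35 and 17 for Col4a5. With at least 100 counts, the largest ratios were -0.60 for Col4a4 (interval -1.18 to -0.05), -0.24 for Col15a1 (interval -0.44 to -0.04) and -0.16 for Col4a1 (interval -0.27 to -0.05), which encodes a main chain of collagen IV. Of 11 other basement membrane proteins, 1 was higher and 1 lower, with a median of -0.04. Tinagl1, a laminin-binding matricellular protein, had a ratio of 0.48, Pxdn, which crosslinks collagen IV, of -0.36, and Sparc, a collagen-binding protein, of 0.31 (0.04 with spike-in scaling).

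Of 13 receptors for laminin or agrin other than integrins and the enzymes that glycosylate dystroglycan, 2 were past the fold and higher and 1 lower, with a median of 0.11. Musk, the kinase of the agrin receptor, had 111 and 68 counts and a ratio of 1.22 (interval 0.775 to 1.68). Lrp4, the agrin-binding subunit, had 34 and 61 counts and a ratio of -0.32 with an interval that holds 0 (-0.98 to 0.30). Sdc2 and Sdc3, syndecans of the cell surface, had ratios of 0.34 (interval 0.11 to 0.57) and 0.29 (interval -0.10 to 0.68). Dag1, which encodes dystroglycan, had 3324 and 5046 counts and a ratio of -0.09 (interval -0.15 to -0.02).

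Of 22 integrin activators and adhesion adaptors, 2 were past the fold and higher and 1 lower, with a median of 0.07 and 15 ratios above 0. Zyx, a focal adhesion protein that responds to tension, had 197 and 152 counts and a ratio of 0.89 (interval 0.58 to 1.21). Actn1, an α-actinin of adhesions, had a ratio of 0.64 (interval 0.37 to 0.90), and Bcar1, an adaptor phosphorylated at adhesions, of -0.66 (interval -0.99 to -0.35). Tln1 and Tln2, the talins that bind integrin β tails, had ratios of -0.01 and 0.07. Of 11 integrin ligands other than laminins, 1 was higher and 1 lower, with a median of 0.10. Tnc, which encodes tenascin C, had 110 and 107 counts and a ratio of 0.56 (interval 0.16 to 0.95). Postn had a ratio of 0.50, just under the fold, and Mfge8, a ligand of αv integrins, of 0.34. With spike-in scaling each of these ratios is lower by 0.28.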

How the data were processed

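Muscle RNA of 3 FLExDUX4 and 3 WT mice was sequenced with QuantSeq. Per the labels and the study's methods, the authors trimmed reads with Cutadapt 1.16 and aligned them with STAR 2.5.3a to GRCm38 with ERCC and SIRV spike-in sequences, and the submitters' processing notes list featureCounts 1.6.2 and DESeq2. The deposited counts are raw reads per gene summed over each genotype. A further 6 numbered columns hold counts of single libraries, and because no label carries those numbers they entered no step. The authors' own comparison (mean, fold change, error, statistic and p-values) was not used.

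TMM factors came from edgeR 4.0.16 (R 4.3.3) for the 13396 genes kept by filterByExpr, with spike-ins left out. Ratios used a pseudocount of 0.5, and intervals were Clopper-Pearson at 95% (Python 3.11.15, scipy 1.17.1). Since columns were assigned by label only, 1 total per genotype was used and the planned tests across mice (edgeR, DESeq2) were not run. The 3 counts allowed by a count of 0 and all intervals cover counting error only, since reads carry no molecular identifiers. Of the repeated symbol Itgam, the row with counts was taken. Coordinates are from GENCODE M21 (GRCm38), and the start equals the deposited one for each gene printed. Members with at least 50 counts over both totals were named with a ratio, and those with 10 or more with counts, except 1 that is not reported here. From the lists, the 3 largest ratios with at least 100 counts were named. Col4a3, Col4a5, Dag1, Lrp4, Tln1, Tln2 and the marker genes were named after their values were seen. Members and lists were chosen with earlier results of these data known. Scaling, pseudocount, filter and fold were varied.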

Additional observations from a re-analysis of the deposited data

How the results depend on the processing

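No paired analysis was possible because no label ties the numbered columns to mice. Leaving out a replicate and tests by DESeq2 or edgeR were not run, since columns were assigned by label only. Matching the numbered columns to the genotype totals by their values was not tried, so whether it would allow these steps is not known. RLE, upper quartile and gene totals in place of TMM, both other filters and a pseudocount of 1 changed neither the direction nor the side of the fold for any of the 25 members with at least 50 counts, with shifts up to 0.03. Spike-in totals moved all ratios by -0.28, which changed the direction of 8 (Lama4, Lama5, Lamb1, Nid1, Itga1, Itgb1, Itgb5 and Itgb1bp1), ended the fold for 3 and brought 5 past it. The cause of that shift was not tested. Of the 36 members kept, 7 were past the fold and higher and 3 lower. These numbers were 4 and 9 with spike-in totals, 7 and 7 with no filter (42 members, beside 24% and 26.7% of genes), 6 and 1 with at least 10 counts in each total (32 members, beside 13.9% and 11.1%), 4 and 1 with at least 100 counts over both (24 members), 3 and 2 at an absolute log2 ratio of at least 1 (beside 5.99% and 7.43%), and 8 and 4 by the counting interval. The filters change which members are counted. Shares depend on the chains in a class by construction. The difference in the Lama4 share was -5.80 percentage points, and 0.188 without Lama2. The γ class was left out there, since past Lamc1 it holds under 50 counts. For Itgb5 it was 1.203, and 10.1 without Itgb1, for Lamb1 1.48, and 2.77 without Lamb2, and for Itga7 0.372, and 2.67 without Itga1.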
